A study of Mus musculus with 36 samples.

Results

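The genes of lipolysis and of the lipid droplet surface (10 of the 56748 genes with a deposited FPKM) were followed across 8 groups of libraries: visceral white adipose tissue (visWAT, the epididymal fat pad) and liver of wild-type (WT) and Mlkl Adi-KO mice on normal chow diet (NCD) or high fat diet (HFD). They were taken by symbol, as the lipases Pnpla2, Lipe and Mgll, the lipase regulators Abhd5 and G0s2, and the droplet coat genes Plin1, Plin2, Plin4, Plin5 and Cidec. Every symbol was found once in the table. All mice were male C57BL/6J, entered the experiment at 16 weeks of age and ate their diet for 16 weeks. Mlkl Adi-KO mice carried floxed Mlkl and the Adipo-Cre transgene, which was used to delete the gene in mature adipocytes. Their WT littermates carried the same floxed alleles without Cre. Each tissue had 4 NCD-fed mice and 5 HFD-fed mice per genotype, and fat and liver came from the same 18 mice, 36 libraries in all. FPKM, the unit used throughout, is a fragment count divided by gene length and by library size, so that levels of different genes can be set side by side.

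Stored fat is a droplet of triacylglycerol under a protein coat, and fatty acids leave it in steps. ATGL, the product of Pnpla2, takes off the first fatty acid, hormone-sensitive lipase (Lipe) takes the next from diacylglycerol, and monoacylglycerol lipase (Mgll) frees glycerol. ABHD5 (CGI-58) activates ATGL and G0S2 inhibits it. Perilipin 1 (Plin1) coats the droplets of adipocytes and holds ABHD5 away from ATGL until protein kinase A phosphorylates the coat. Perilipin 2 (Plin2) is the coat of most other cells, hepatocytes and lipid-laden macrophages included. Perilipin 4 (Plin4) coats nascent droplets of adipocytes, perilipin 5 (Plin5) is known from oxidative tissues and liver, and CIDEC (FSP27) lets small droplets merge into large ones. In the steatotic liver of rodents, Cidec and other adipocyte-type droplet genes are known targets of PPARγ.

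In GRCm39, the build of the files, Pnpla2 lies on the plus strand at chr7:141035111-141040656, Lipe on the minus strand at chr7:25078952-25098135 and Plin1 on the minus strand at chr7:79369966-79382651. Mgll occupies chr6:88701394-88805342 (plus strand) and Cidec chr6:113401595-113412721 (minus strand). Abhd5 is at chr9:122180673-122210589 (plus), G0s2 at chr1:192954469-192955525 (minus) and Plin2 at chr4:86566623-86588297 (minus). Plin4 (chr17:56407591-56416803) and Plin5 (chr17:56418601-56424596) are neighbours on the minus strand, 1797 bases apart, with Plin5 upstream. These are whole-gene spans, exons and introns included, and the level of a gene sums all of its transcripts.

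All 10 members had a promoter entry in the RefSeq table, with 14 starts in all. Promoter stretches from 250 to 51 bases before a start are given below for Cidec, a gene that differed between diets in WT liver, for Plin5, the gene that was higher in liver than in fat, and for the downstream start of Lipe, in each case where the stretch shares at most 12 bases with an annotated exon. The table was built on GRCm38.p6, and each stretch was found once in GRCm39, at chr6:113412772-113412971 for Cidec, chr17:56424599-56424798 for Plin5 and chr7:25089588-25089787 for Lipe, all on the minus strand. Capitals mark the motifs AGGTCA (a nuclear receptor half-site) and CCAAT on either strand.
Cidec: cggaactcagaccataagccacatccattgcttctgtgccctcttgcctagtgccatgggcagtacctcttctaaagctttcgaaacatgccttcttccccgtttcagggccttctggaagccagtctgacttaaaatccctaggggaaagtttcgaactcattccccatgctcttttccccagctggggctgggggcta
Plin5: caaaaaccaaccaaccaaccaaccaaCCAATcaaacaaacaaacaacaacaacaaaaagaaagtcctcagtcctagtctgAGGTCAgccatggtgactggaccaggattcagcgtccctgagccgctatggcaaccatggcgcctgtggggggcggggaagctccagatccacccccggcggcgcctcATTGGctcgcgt
Lipe: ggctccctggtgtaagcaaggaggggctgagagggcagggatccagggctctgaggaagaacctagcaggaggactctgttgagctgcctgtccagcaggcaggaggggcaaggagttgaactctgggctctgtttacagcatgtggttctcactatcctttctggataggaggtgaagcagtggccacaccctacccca
The Plin5 stretch held 1 AGGTCA and 2 CCAAT matches, and the Cidec and Lipe stretches held neither. Over all 32851 promoters of the table, the same stretch held AGGTCA on either strand in 11.4% and CCAAT in 28.4%. The longer PPAR-type repeat AGGNCANAGGNCA, which overlaps the half-site where its N is T, was in none of the 14 stretches of the members and in 0.265% of all.

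Libraries held 21580696 to 30322171 reads on genes in visWAT and 20875463 to 25530574 in liver. Adipoq, which encodes adiponectin, ranged from 743 to 1995 FPKM in visWAT, and Alb, which encodes albumin, from 25146 to 47072 FPKM in liver, each the labelled tissue. Alb reached at most 53.2 FPKM in 17 visWAT libraries and 460 FPKM in that of HFD-fed Mlkl Adi-KO mouse 156. In visWAT, Mlkl was at 2.32 to 2.72 FPKM in HFD-fed Mlkl Adi-KO mice against 4.58 to 6.28 in HFD-fed WT mice, and at 1.96 to 2.49 in NCD-fed Mlkl Adi-KO mice. NCD-fed WT mice 165, 180 and 183 had 5.11, 4.63 and 3.91 FPKM. In visWAT the level was 2.29 in the library labelled WT, NCD, mouse 182, within the Mlkl Adi-KO range and against its label. The visWAT library of NCD-fed WT mouse 183 held 266044 FPKM over a list of epididymis and seminal vesicle genes, against 0.0729 to 343 in the other 3 of its group. Counts of called members in comparisons that use NCD-fed WT visWAT are therefore also given without mice 182 and 183. Group means, ratios of means and the calls of other gene lists and marker lists kept both mice. Each replicate is 1 mouse.

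**Figure D1:**
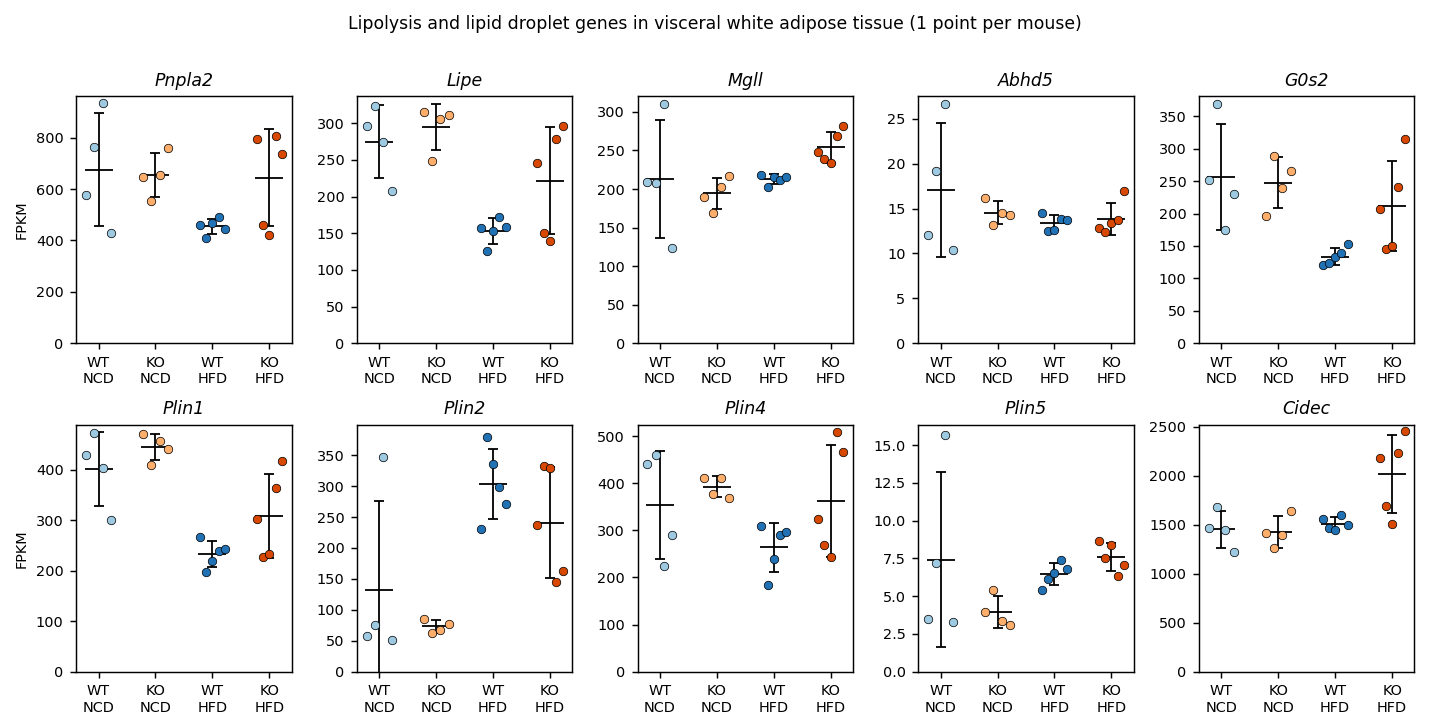
FPKM (y axis, linear) of the 10 genes in visWAT in 4 groups, with 1 point per mouse and the bar at the mean with its SD. Plin2 sat at 231 to 380 FPKM in HFD-fed WT mice and Plin1 at 198 to 266, while HFD-fed Mlkl Adi-KO mice spread from 144 to 333 and from 226 to 418.

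**Figure D2:**
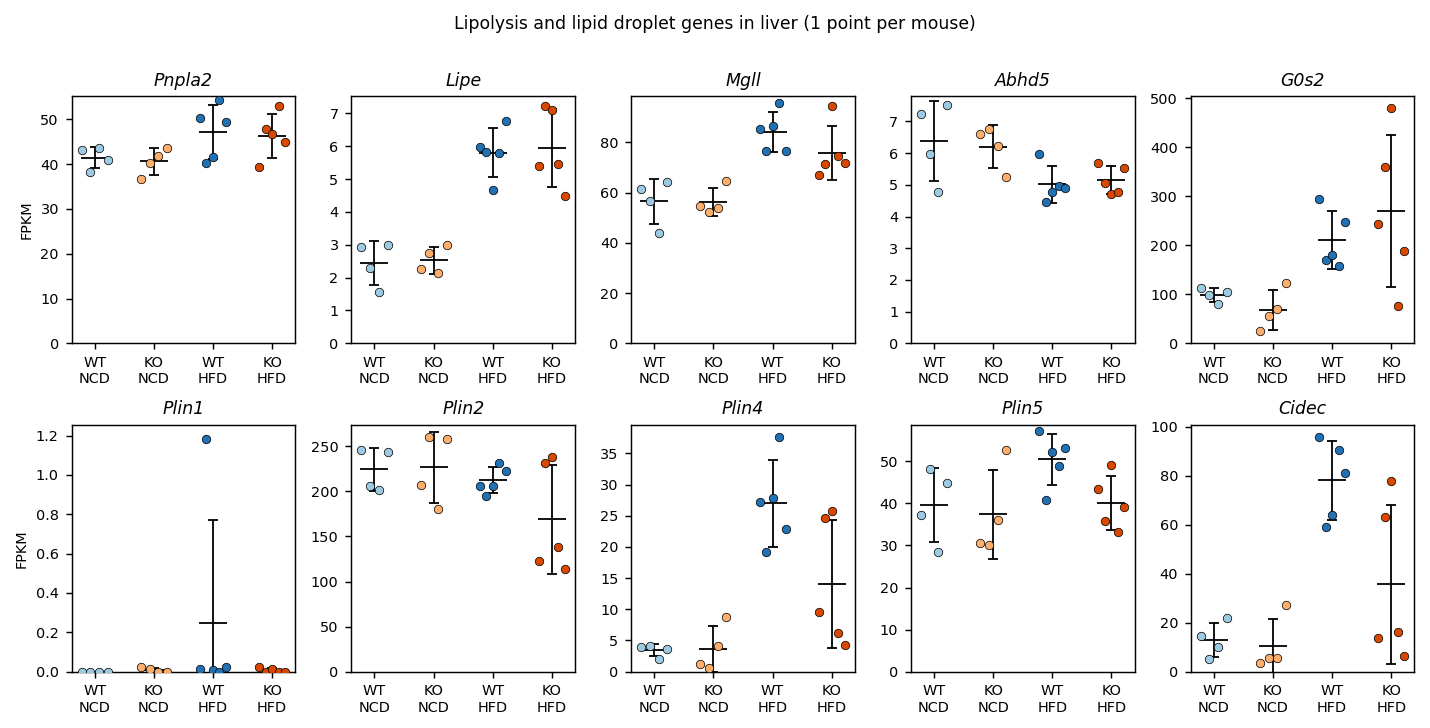
FPKM (y axis, linear) of the same genes in liver, with 1 point per mouse and the bar at the mean with its SD. Cidec and Plin4 were high in all 5 HFD-fed WT mice and in mice 152 and 153 of the 5 HFD-fed Mlkl Adi-KO mice, and Plin1 was near 0 apart from 1 mouse.

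Fat and liver held most members at different levels. In NCD-fed WT mice, 8 of the 10 genes were called higher in visWAT than in liver and 1, Plin5, was called lower. Of all genes, 31.5% and 34% were. Cidec had the highest level of all members in fat, 1453 ± 185 FPKM (SD, n = 4), and 13.0 ± 6.99 in liver, a 112-fold ratio of means. Pnpla2 came next in fat with 676 ± 220 FPKM against 41.5 ± 2.41 in liver. Lipe was at 275 ± 49.5 against 2.44 ± 0.673 FPKM and Plin4 at 353 ± 115 against 3.42 ± 0.962 FPKM, ratios of 113 and 103. In liver the lipases of the first steps thus lay at unequal levels, with Pnpla2 at 38.3 to 43.5 FPKM and Lipe at 1.55 to 2.99 FPKM.

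Plin1 had the largest tissue difference of the members. It had 0 reads in all 4 livers of NCD-fed WT mice, which with a floor of 3 reads per library makes its level in visWAT (402 ± 73.8 FPKM, n = 4) at least 10296-fold higher. Across the livers of the other groups it had 0 to 2 reads, except for 103 reads (1.18 FPKM) in HFD-fed WT mouse 155. The liver of that mouse also held 2.70 FPKM of Adipoq against at most 0.250 FPKM in the other 17 livers.

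Smaller tissue differences were found for Mgll (213 ± 76.5 FPKM in fat, 56.5 ± 8.99 in liver), Abhd5 (17.1 ± 7.43 and 6.38 ± 1.25) and G0s2 (256 ± 81.2 and 98.6 ± 13.8). Plin5 ran the other way, at 39.7 ± 8.77 FPKM in liver and 7.41 ± 5.78 in fat, where mice 165, 180 and 183 had 3.48, 7.21 and 3.30 FPKM and mouse 182 had 15.7. Its neighbour Plin4 was among the most fat-biased members. In limma on log2(FPKM + 1), the difference of visWAT minus liver was 6.84 ± 0.35 for Cidec (SE, adjusted p = 6.34e-07), 6.33 ± 0.19 for Lipe, 3.94 ± 0.23 for Pnpla2, 1.84 ± 0.27 for Mgll, 1.33 ± 0.23 for G0s2, 1.22 ± 0.28 for Abhd5 (adjusted p = 0.00462) and −2.48 ± 0.42 for Plin5 (adjusted p = 0.000882, or −3.03 without mouse 182). Of all genes, 31.5% were called higher and 34% lower in visWAT, so that calls were common at this contrast, and on the TPM scale, which shifts the median of all genes by 0.55, 74.9% of called genes were higher instead of 48.1%, with 9 members called on either scale. Plin2 was not called (−1.23, adjusted p = 0.0766): its livers held 201 to 246 FPKM and its fat libraries 58.2, 74.8 and 52.0 FPKM in mice 165, 180 and 183 and 346 FPKM for the label WT, NCD, mouse 182. Without mouse 182 the difference was −1.91 (adjusted p = 8.39e-05), and without mice 182 and 183 all 10 members were called. RNA of fat was extracted with a phenol-based reagent (TRIzol in the labels, QIAzol in the methods) and RNA of liver with a column kit, so tissue and extraction cannot be told apart.

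Across all 8 groups, the order of mean levels kept every visWAT group above every liver group for Pnpla2, Lipe, Mgll, Abhd5, Plin1, Plin4 and Cidec, and every liver group above every visWAT group for Plin5. Only Plin2 and G0s2 mixed the tissues. Their highest group means were 303 ± 57.1 FPKM in visWAT of HFD-fed WT mice for Plin2 and 270 ± 156 FPKM in liver of HFD-fed Mlkl Adi-KO mice for G0s2. Each of the 8 groups of Plin2 overlapped its neighbour in this order. The overlap of NCD-fed WT visWAT with liver of HFD-fed Mlkl Adi-KO mice (114 to 238 FPKM) rests on mouse 182 at 346 FPKM. In visWAT, NCD-fed WT mice 165, 180 and 183 had 58.2, 74.8 and 52.0 FPKM.

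HFD feeding of WT mice lowered the adipocyte coat gene Plin1 in fat and raised Plin2. In WT visWAT, Plin1 was at 299.6, 404, 429 and 473 FPKM on NCD and between 198 and 266 FPKM, with a median of 238, on HFD. The 2 diets did not overlap. Plin2 was at 231, 272, 299, 335 and 380 FPKM on HFD against 52.0 to 74.8 FPKM in NCD-fed mice 165, 180 and 183. The 346 FPKM of the library labelled WT, NCD, mouse 182 lay inside the HFD range, with an Adgre1 level of 5.83 FPKM, inside the range of its NCD-fed group. On the log2 scale, Plin1 fell by 0.77 ± 0.15 (SE, adjusted p = 0.00356, limma) and Plin2 rose by 1.65 ± 0.50 (adjusted p = 0.0276), or by 2.16 without mice 182 and 183 (adjusted p = 0.0001024). The call of Plin2 was lost by edgeR (1.13) and DESeq2 (1.14) and without mouse 155, 161, 162, 165, 180 or 183. The ratio of Plin2 to Plin1 was 0.135, 0.158 and 0.174 in NCD-fed WT mice 165, 180 and 183 and 0.858 in mouse 182, and averaged 1.34 in WT on HFD.

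The lipase Lipe and the ATGL inhibitor G0s2 were lower in the same comparison. Lipe was at 207, 274, 296 and 323 FPKM on NCD and at 125 to 173 FPKM on HFD, a fall by 0.83 ± 0.15 on the log2 scale (adjusted p = 0.00211). G0s2 was at 175 to 368 FPKM on NCD and 121 to 153 FPKM on HFD and fell by 0.89 ± 0.19 (adjusted p = 0.00585). Pnpla2, the target of G0s2, had 428 to 934 FPKM on NCD and 411 to 491 FPKM on HFD, with a difference of −0.51 (adjusted p = 0.0849). Without mouse 183 its value was −0.71 (adjusted p = 0.00746), and edgeR on recovered reads also called it. For Cidec the levels were 1224 to 1678 FPKM on NCD and 1447 to 1597 FPKM on HFD (0.07, adjusted p = 0.722). Mgll (0.07), Abhd5 (−0.24), Plin4 (−0.38) and Plin5 (0.05) were not called, with intervals for Plin4 from −0.94 to 0.17 and for Plin5 from −0.75 to 0.86.

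Thus 1 of 10 members was called higher in HFD-fed WT visWAT, where 21.9% of all genes were, and 3 were called lower, where 15.8% of all genes were. Leaving out mice 182 and 183 gave 6 called members, with Pnpla2 (−0.55) and Plin4 (−0.79) added. The median difference was −0.31 over the members and −0.0061 over all genes. On the TPM scale, which shifts the median of all genes by 0.38, the log2 difference was −0.35 for Lipe, −0.41 for G0s2 and −0.29 for Plin1, and none of the 3 was called. On that scale 94.4% of the called genes were higher, against 58.1% on the FPKM scale. The summed FPKM by which TPM divides was 564718 in NCD-fed WT mouse 183 and 243503 to 309820 in mice 165, 180 and 182. In the diet comparison of Mlkl Adi-KO visWAT, which lacks that library, the median of all genes was −0.021 on the TPM scale. No TPM fit without mouse 183 was run, so its part in the lost calls was not tested. Summed levels of a macrophage marker list were 162 to 256 FPKM on NCD and 1666 to 2447 on HFD in WT visWAT, and those of an adipocyte list 10876 to 23214 and 3952 to 5602. On NCD the adipocyte list summed to 10876 and 14090 FPKM in mice 182 and 183 and to 20169 and 23214 in mice 165 and 180. Of the lists, 8 of 9 tested macrophage genes and 5 of 5 fibroblast genes were called higher, and of 7 adipocyte genes 5 were called lower and 1 higher, Lep, with a mean of 137 FPKM on NCD and 602 on HFD. In bulk tissue fewer adipocytes and less RNA per adipocyte cannot be told apart, and the part of cell makeup in the members' values was not tested.

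In Mlkl Adi-KO visWAT, 4 members were called higher on HFD and 1 lower, beside 23.3% and 20.3% of all genes. Plin2 went from 62.4, 67.8, 76.7 and 85.9 FPKM on NCD to 144, 162, 237, 329 and 333 on HFD, with no overlap and a log2 difference of 1.63 ± 0.26 (adjusted p = 0.00152). Plin5 went from 3.06 to 5.44 FPKM to 6.35 to 8.64 FPKM, again without overlap (0.81 ± 0.14, adjusted p = 0.00192). Mgll rose from 168 to 216 FPKM to 234 to 281 FPKM (0.39 ± 0.10, adjusted p = 0.0103). Cidec, at 1260.3 to 1645 FPKM on NCD and 1509 to 2461 on HFD, overlapped between diets and rose by 0.48 ± 0.16 (adjusted p = 0.0404). Plin1, at 410.5 to 472 FPKM on NCD and 226 to 418 on HFD, fell by 0.57 ± 0.18 (adjusted p = 0.0327). The calls of Plin1 and Cidec were lost when several single mice were left out, and the call of Mgll was lost when all 4 visWAT groups shared 1 fit (adjusted p = 0.0876). In the same comparison 7 of 9 macrophage genes and 2 of 5 fibroblast genes were called higher, and of 7 adipocyte genes 3 were called lower and 1, Lep, higher. The adipocyte list summed to 18264 to 22479 FPKM on NCD and 4764 to 12763 on HFD and the macrophage list to 219 to 385 and 615 to 2208, and their part in the members was not tested.

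Of all genes, 23.3% were called higher and 20.3% lower in this comparison. Lipe (248 to 315 FPKM on NCD, 140 to 296 on HFD), G0s2 (197 to 288, 146 to 315) and Pnpla2 (552 to 761, 422 to 805) were not called, with log2 differences of −0.47, −0.27 and −0.07. Whether the effect of diet differed between genotypes was tested as an interaction over the 18 mice. None of the 10 members was called in visWAT by limma, edgeR or DESeq2, also without mice 182 and 183 in limma, and none had an unadjusted p under 0.05. The share of all genes called was 0%, with an unadjusted p under 0.05 for 1867 genes. The largest interaction estimates were 0.76 for Plin5 (95% interval −0.10 to 1.62) and 0.62 for G0s2 (−0.05 to 1.28).

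**Figure D3:**
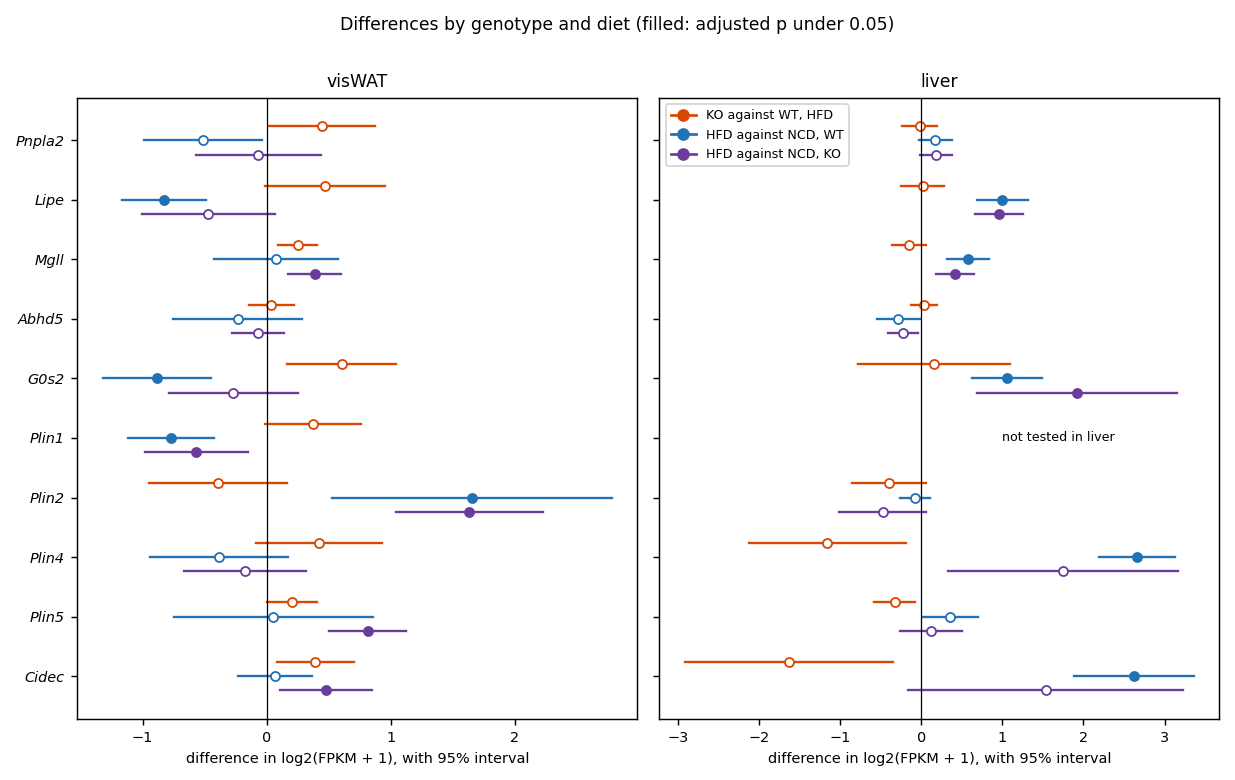
Differences in log2(FPKM + 1) with 95% intervals for the 10 genes in visWAT (left) and liver (right), for Mlkl Adi-KO against WT on HFD and for HFD against NCD in each genotype. Filled points passed an adjusted p of 0.05 in limma, and none of the genotype differences did.

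The comparison of Mlkl Adi-KO with WT fat on HFD gave no called member, with 9 of 10 estimates above 0. Pnpla2 was at 422, 459, 738, 795 and 805 FPKM in Mlkl Adi-KO mice 153, 152, 157, 151 and 156, and at 411 to 491 FPKM, with a median of 460, in WT mice. Mice 151, 156 and 157 lay above every WT mouse and mice 152 and 153 within the WT range. The same 3 mice lay above every WT mouse for Lipe (246, 278 and 296 against at most 173 FPKM), G0s2 (206, 241 and 315 against at most 153), Plin1 (302, 363 and 418 against at most 266), Plin4 (325, 508 and 466 against at most 309) and Cidec (2182, 2238 and 2461 against at most 1597). For Plin2, mice 156 and 157 (144 and 162 FPKM) lay below every WT mouse, of which the lowest had 231, and mouse 151 had 237 FPKM.

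Mgll was the 1 member whose groups stood apart, at 234, 239, 248, 269 and 281 FPKM in Mlkl Adi-KO mice and 203 to 218 FPKM in WT mice. Groups without overlap were found for 3.01% of all genes in this comparison. Its log2 difference was 0.25 ± 0.07 (SE, adjusted p = 0.221, limma), and DESeq2 on recovered reads called it (0.26, adjusted p = 0.0189), while edgeR called none. The difference was 0.60 ± 0.20 for G0s2, 0.45 ± 0.19 for Pnpla2, 0.47 ± 0.22 for Lipe, 0.42 ± 0.23 for Plin4, 0.39 ± 0.14 for Cidec and 0.37 ± 0.17 for Plin1, with adjusted p values from 0.221 to 0.282. Plin5 (0.20), Abhd5 (0.04, interval −0.15 to 0.22) and Plin2 (−0.39, interval −0.95 to 0.16) completed the set. Unadjusted p values under 0.05 in limma were found for Pnpla2, Mgll, G0s2 and Cidec, and 0.0215% of all genes were called. The median difference was 0.38 over the members and −0.00065 over all genes tested.

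Markers of several cell types differed among the same HFD-fed Mlkl Adi-KO mice. The adipocyte list summed to 9292, 12763 and 12175 FPKM in mice 151, 156 and 157 and to 5089 and 4764 in mice 152 and 153, against 3952 to 5602 in WT mice. The macrophage list summed to 1366, 684 and 615 FPKM in the first 3 and to 2078 and 2208 in the other two, against 1666 to 2447 in WT mice. The fibroblast list summed to 520, 352 and 454 FPKM in mice 151, 156 and 157 and to 862 and 807 in mice 152 and 153, against 668 to 792 in WT mice. A hepatocyte list summed to 1189 and 337 FPKM in mice 156 and 157 and to 91.2, 68.2 and 59.2 in mice 151, 152 and 153. In HFD-fed WT mice it summed to at most 155 FPKM, and in NCD-fed visWAT of both genotypes to 858 to 1975 FPKM. Alb was at 460 FPKM in mouse 156 and at 8.72 FPKM in mouse 157. No gene of the 7 adipocyte, 9 macrophage, 5 fibroblast or 7 hepatocyte markers tested was called between genotypes. How far these mixtures bear on the members was not tested. With mouse 152 left out, the difference was 0.56 for Pnpla2, 0.72 for G0s2 and 0.47 for Plin1, and no member was called with any single mouse left out.

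On NCD, the fat of the 2 genotypes gave no called member, with all mice or without mice 182 and 183. None had an unadjusted p under 0.05 in limma, edgeR and DESeq2 called none, and the share of all genes called was 0%, with 528 at an unadjusted p under 0.05. No member stood apart between genotypes, where 2.46% of all genes did. Differences ran from −0.56 for Plin5 to 0.21 for Plin4, and without mice 182 and 183 these were −0.32 and −0.20. The intervals were wide for Plin2 (−1.63 to 0.89) and narrower for Cidec (−0.40 to 0.36) and Plin1 (−0.20 to 0.54), and differences within them were not detectable with 4 mice per group.

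**Figure D4:**
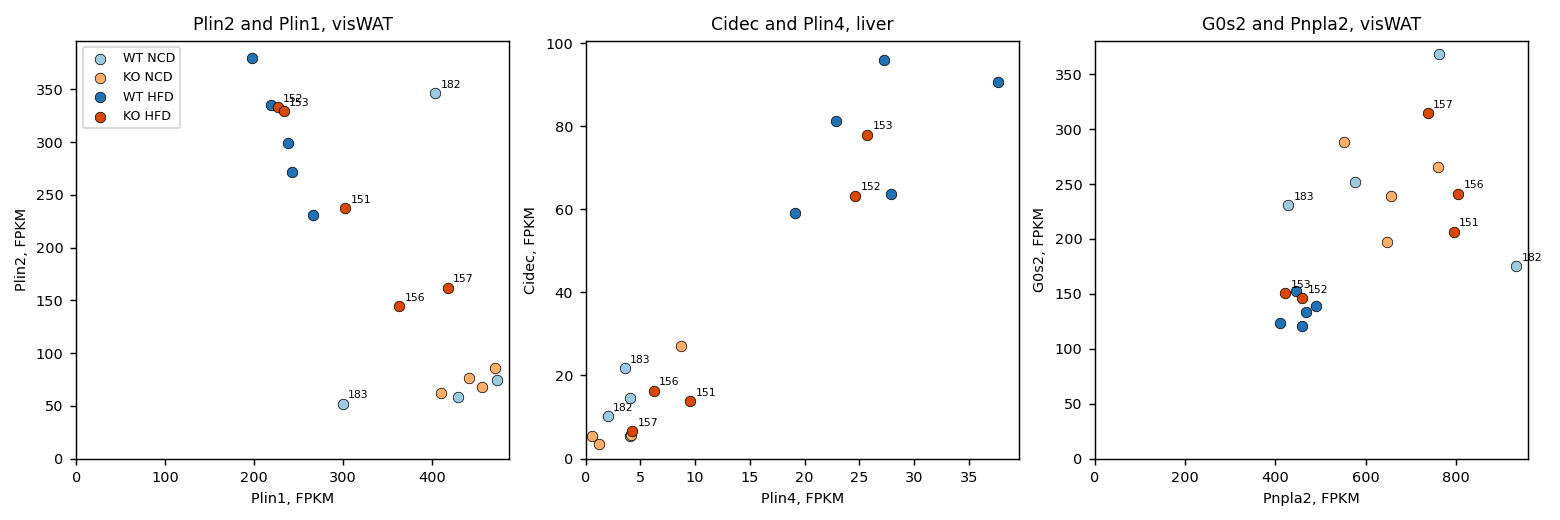
FPKM of pairs of members, with 1 point per mouse (linear axes): Plin2 against Plin1 in visWAT, Cidec against Plin4 in liver, and G0s2 against Pnpla2 in visWAT. Numbers name the 5 HFD-fed Mlkl Adi-KO mice and NCD-fed WT mice 182 and 183, and mice 152 and 153 lie among the HFD-fed WT mice in the first 2 panels.

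Liver of WT mice on HFD had more RNA of Cidec and Plin4, the droplet coat genes most abundant in fat relative to liver besides Plin1, and of 3 genes of lipolysis. In WT liver, 5 of 9 tested members were called higher on HFD, beside 13.2% of all genes. Cidec was at 5.35, 10.2, 14.6 and 21.8 FPKM on NCD and at 59.1, 63.8, 81.3, 90.6 and 96.0 FPKM on HFD, a 6.02-fold ratio of means. Plin4 was at 2.01, 3.57, 4.02 and 4.07 FPKM on NCD and between 19.2 and 37.7 FPKM on HFD, a 7.89-fold ratio. The differences were 2.63 ± 0.33 for Cidec (SE on the log2 scale, adjusted p = 0.000587) and 2.66 ± 0.21 for Plin4 (adjusted p = 5.93e-05). Even on HFD, the liver of WT mice had Cidec at a level 19.4-fold and Plin4 at a level 9.79-fold below that of their fat.

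Lipe, Mgll and G0s2 rose less. Lipe was at 1.55 to 2.99 FPKM (189 to 312 reads) on NCD and 4.67 to 6.76 FPKM (538 to 728 reads) on HFD (1.0004 ± 0.14, adjusted p = 0.00107). G0s2 went from 80.0 to 113 FPKM to 158 to 295 FPKM (1.05 ± 0.19, adjusted p = 0.00395) and Mgll from 43.9 to 64.0 FPKM to 76.5 to 95.7 FPKM (0.58 ± 0.11, adjusted p = 0.00626). Plin2, the constitutive coat of hepatocyte droplets, had 201 to 246 FPKM on NCD and 195 to 231 FPKM on HFD (−0.08, interval −0.26 to 0.11). Pnpla2 (0.17), Plin5 (0.36) and Abhd5 (−0.28) were not called.

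Of all genes, 13.2% were called higher and 12.1% lower in WT liver. With all mice, no member was called lower by limma or edgeR, 1 (Abhd5) had a negative difference at an unadjusted p under 0.05, and DESeq2 called it (−0.35). Without mouse 182, limma called Abhd5 lower as well (−0.40, adjusted p = 0.0139). Without mouse 155, whose liver held reads of Plin1 and Adipoq, the difference was 2.72 for Cidec and 2.77 for Plin4. The adipocyte list had 3 of 7 genes tested in this comparison, with Adipoq and Lep below the filter of 0.5 FPKM, and 2 of them (Cfd and Car3) were called higher in each genotype. The list summed to 396 to 906 FPKM on NCD and 1065 to 1710 on HFD in liver, and its part in the members was not tested. Adipoq had 0 to 6 reads in the 17 livers other than that of mouse 155. The sum in liver thus rests on other genes of the list. None of the 8 macrophage genes tested in WT liver was called. When all 4 liver groups shared 1 fit, the call of G0s2 was lost (adjusted p = 0.0937).

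In Mlkl Adi-KO liver, 3 of 9 members were higher on HFD. Lipe rose from 2.13 to 2.997 FPKM to 4.50 to 7.23 FPKM (0.96 ± 0.13, adjusted p = 0.00107) and Mgll from 52.1 to 64.7 FPKM to 67.1 to 94.3 FPKM (0.42 ± 0.11, adjusted p = 0.0193), both without overlap. G0s2 was at 26.0, 55.4, 69.4 and 123 FPKM on NCD and at 77.0, 189, 244, 360 and 482 FPKM on HFD, so that the diets overlapped (1.92 ± 0.55, adjusted p = 0.0327). That call was lost when any of 7 single mice was left out. Cidec was at 3.57, 5.51, 5.72 and 27.1 FPKM on NCD and at 6.55, 13.8, 16.4, 63.3 and 78.0 FPKM on HFD, with a difference of 1.53 (adjusted p = 0.180). Plin4 was at 0.606 to 8.69 FPKM on NCD and 4.24 to 25.7 FPKM on HFD (1.75, adjusted p = 0.0759) and was called without NCD-fed mouse 199 (2.22, adjusted p = 0.0390) and when all 4 liver groups shared 1 fit (1.75, adjusted p = 0.0172). Of all genes, 11.9% were called higher and 10.3% lower. With all mice, no member was called lower by limma or edgeR, with 1 (Abhd5) below 0 at an unadjusted p under 0.05 and called by DESeq2 (−0.28). Without mouse 199, limma called Abhd5 lower as well (−0.30, adjusted p = 0.0278).

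Between genotypes, HFD livers differed most in Cidec and Plin4, by amounts that did not pass the test. Cidec was at 13.8, 63.3, 78.0, 16.4 and 6.55 FPKM in Mlkl Adi-KO mice 151, 152, 153, 156 and 157 and at 59.1 to 96.0 FPKM in WT mice. Mice 152 and 153 lay within the WT range and the other three below it. Plin4 followed with 9.52, 24.6, 25.7, 6.22 and 4.24 FPKM in the same order of mice, against 19.2 to 37.7 in WT mice, and Plin2 with 123, 231, 238, 139 and 114 FPKM against 195 to 231. The differences were −1.63 for Cidec (95% interval −2.92 to −0.35, adjusted p = 0.297), −1.16 for Plin4 (−2.13 to −0.19, adjusted p = 0.328), −0.40 for Plin2 (adjusted p = 0.461) and −0.33 for Plin5 (adjusted p = 0.295).

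Marker lists differed among the same livers. The fibroblast list summed to 21.3, 22.4 and 20.7 FPKM in mice 151, 156 and 157 and to 44.2 and 39.2 in mice 152 and 153, against 33.8 to 46.8 in WT mice. The adipocyte list summed to 1279, 1131 and 1065 FPKM in the first 3 and to 1581 and 1710 in the other two, against 1193 to 1621 in WT mice, and Adipoq had 0 or 1 read in these 5 Mlkl Adi-KO livers. The hepatocyte list summed to 52740, 57790 and 55500 FPKM in the first 3 and to 48158 and 47625 in the other two, against 43498 to 50342 in WT mice. None of these genes was called between genotypes, and their part in the members' values was not tested.

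G0s2 was at 77.0 to 482 FPKM in HFD-fed Mlkl Adi-KO livers and 158 to 295 in WT livers (0.16, interval −0.78 to 1.10). Pnpla2, Lipe, Mgll and Abhd5 had differences between −0.15 and 0.03. Of 9 members tested, limma, edgeR and DESeq2 called none, 3 (Plin4, Plin5 and Cidec) had an unadjusted p under 0.05, and no member stood apart between genotypes. Over all genes, 0.197% were called and 2.62% stood apart. On NCD, 0.00758% of all genes were called and 2.8% stood apart, and no member did either, had an unadjusted p under 0.05 or was called by edgeR or DESeq2, the largest difference being −0.71 for G0s2 (interval −1.61 to 0.19). The interaction of genotype and diet in liver called 0.0151% of all genes and no member, by limma, edgeR or DESeq2, and none had an unadjusted p under 0.05.

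The effect of diet differed between fat and liver of the same WT mice for 7 members. The difference of the diet effect in visWAT minus that in liver was −3.04 ± 0.33 for Plin4 (SE, limma, adjusted p = 2.30e-06), −2.56 ± 0.36 for Cidec (adjusted p = 3.58e-05), −1.94 ± 0.28 for G0s2 and −1.83 ± 0.21 for Lipe. Lipe and G0s2 fell in fat and rose in liver, whereas Cidec and Plin4 rose in liver and were not called in fat. Plin2 went the other way (1.73 ± 0.54, adjusted p = 0.0169). Values for Pnpla2 (−0.69, adjusted p = 0.0272) and Plin1 (−1.01, adjusted p = 0.00773) also passed, and that for Plin1 rests on livers with 0 to 2 reads apart from mouse 155. Over all genes, 21.8% were called higher and 18.2% lower. The 2 tissues shared mouse numbers, and a block for the mouse also gave 7. Without mice 182 and 183 there were 8, with Mgll (−0.47) added. On the TPM scale, which shifts the median by 0.35 and puts 86.5% of called genes higher against 54.5%, the calls of Pnpla2 (−0.24) and Plin1 (−0.67) were lost. That fit kept mouse 183. Plin2 was not called by edgeR (1.23) or DESeq2 (1.25), and DESeq2 gave no adjusted p for Plin1.

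At the RNA level, the balance of Pnpla2 and G0s2 also differed between tissues. The ratio of G0s2 to Pnpla2 FPKM per mouse averaged 0.411 ± 0.155 in NCD-fed and 0.295 ± 0.0299 in HFD-fed WT visWAT. In NCD-fed WT visWAT it was 0.187 in mouse 182 and 0.539 in mouse 183. It averaged 2.39 ± 0.366 and 4.47 ± 1.09 in the livers of the same NCD-fed and HFD-fed mice. In Mlkl Adi-KO mice it averaged 0.385 and 0.332 in visWAT and 1.64 and 5.94 in liver, where it spread from 1.45 to 10.3 on HFD. The activator Abhd5 was at 0.0224 to 0.0296 of the Pnpla2 level in visWAT group means and at 0.107 to 0.154 in liver. These ratios are given as a description, with no test.

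Other droplet proteins and enzymes, a list of 20 genes of which 19 were in the table, had called genes in both directions in fat. In WT visWAT on HFD, 3 of 16 tested were called higher and 6 lower, beside 21.9% and 15.8% of all genes. The differences were 2.90 for Lipa, lysosomal acid lipase, and 1.68 for Hilpda, an inhibitor of ATGL. They were −1.97 for Cidea, a relative of Cidec, −1.91 for Pnpla3, a relative of Pnpla2, and −1.88 and −1.73 for the carboxylesterases Ces1f and Ces1d. The median of the list was −0.13, and on the TPM scale 5 were called higher and 3 lower. In Mlkl Adi-KO visWAT 5 of 17 were called higher and 4 lower, beside 23.3% and 20.3% of all genes, among them Lipa (1.96), Hilpda (1.02) and Pnpla3 (−1.45).

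In WT liver on HFD, 6 of 19 of this list were called higher and 2 lower, beside 13.2% and 12.1% of all genes. The differences were 3.05 for Cidea, 0.75 for Fitm2, which helps to form droplets, 0.72 for Dgat2, which makes triacylglycerol, 0.67 for Ces1d, 0.26 for Ldah and −2.02 for Pnpla3, with a median of 0.06 over the list and −0.0010 over all genes. In Mlkl Adi-KO liver 2 of 19 were called higher (Dgat2, 0.87, and Fitm2, 0.68) and 2 lower (Pnpla3, −1.63, and Hsd17b11, −0.35), beside 11.9% and 10.3% of all genes.

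Receptors and enzymes that switch lipolysis on or off formed a second list of 22 genes. Of 21 tested in WT visWAT on HFD, 2 were called higher and 4 lower, against the same shares of all genes as above (21.9% and 15.8%). The difference was −2.16 for Adrb3, the β-adrenergic receptor typical of adipocytes, and −1.18 for Pde3b, the phosphodiesterase through which insulin restrains lipolysis. It was −0.81 for the insulin receptor gene Insr, −0.66 for Irs1, 1.11 for the adenylate cyclase gene Adcy3 and 0.85 for Npr3, a clearance receptor of natriuretic peptides, with a median of −0.07 over the list. On the TPM scale 2 were called higher and 2 lower (Adrb3 at −1.70 and Irs1 at −0.80). For the Mlkl Adi-KO genotype 2 were called higher in visWAT and 6 lower, beside 23.3% and 20.3% of all genes. Adrb3 was at −1.61, Pde3b at −1.15 and Irs2 at −1.14. In liver the list gave 3 higher and 2 lower of 13 tested in WT mice, among them Adora1 (0.72) and Acsl1 (0.54). Of all genes, 13.2% and 12.1% were. In Mlkl Adi-KO liver it gave 3 higher, among them Acsl1 (0.47), and 1 lower, beside 11.9% and 10.3% of all genes.

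Nuclear receptors of the PPAR and RXR families and Cebpa, 6 adipogenic and lipid-sensing factors, had called genes lower in fat and higher in liver on HFD. In WT visWAT 5 of 6 were called lower on the FPKM scale, beside 15.8% of all genes. They were Cebpa at −0.91, Pparg at −0.81, Rxrg at −0.62, Rxra at −0.58 and Ppard at −0.38. None was called on the TPM scale, where Ppard was at 0.0047 and mouse 183 was kept. In Mlkl Adi-KO visWAT 4 of 6 were called lower on either scale, beside 20.3% of all genes on the FPKM scale. In WT liver 4 of 6 were called higher, beside 13.2% of all genes, with Pparg at 0.87, Ppara at 0.68, Rxrg at 0.59 and Cebpa at 0.50. In Mlkl Adi-KO liver Ppara (0.89) and Cebpa (0.53) were called higher, beside 11.9% of all genes. None of the genes of the 3 lists was called between genotypes on either diet in either tissue.

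Within the 10 HFD-fed mice, with the mean of each genotype taken away, the genes whose log2 level went most closely with Plin1 in visWAT were Gna11 (r = 0.987), Cachd1 (0.979) and Acat1 (0.975) of 13962 genes. Mgll had r = 0.955, Lipe 0.935, Plin4 0.929, Cidec 0.901, G0s2 0.897, Abhd5 0.822 and Pnpla2 0.820, while Plin5 had −0.459 and Plin2 −0.958 (Spearman rho −0.988, and r = −0.975 without the 2 mice farthest from the median). For Cidec in liver the closest were Ermp1 (0.987), Aldh3a2 (0.984) and Lgals1 (0.981) of 13214, and among the members Plin2 (0.972), Plin4 (0.941) and Lipe (0.866), with G0s2 at 0.644, Mgll at 0.551, Plin5 at 0.316, Pnpla2 at 0.309 and Abhd5 at −0.273. For Plin2 rho was 0.964 and r was 0.958 without the 2 farthest mice. These correlations are over 10 libraries that share the spread among HFD-fed Mlkl Adi-KO mice described above and are a description only.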

How the data were processed

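RNA-seq was run on polyadenylated RNA from visWAT and liver. Per the paper's methods, the authors used fastp for trimming, HISAT2 for alignment to mouse build GRCm39 (mm39) and featureCounts for counting. Strandedness and the annotation release are not given in the sources used here. The authors deposited FPKM for all genes, with gene length in bases, and raw read counts only for the genes in their comparison tables. Their fold changes, p-values and pathway tables were not used, nor were 72 further columns of values per sample.

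FPKM were turned back into reads with the deposited counts: 100% of values came out whole (within 0.01 read). The library size behind the FPKM, divided by the reads on genes, was 1.01 to 1.40 (visWAT) and 0.737 to 0.812 (liver), which means that the FPKM contain a scaling between libraries. The test was limma 3.58.1 (R 4.3.3; two-sided, empirical Bayes trend) on log2(FPKM + 1), for genes with a mean of at least 0.5 FPKM in the libraries compared, with Benjamini-Hochberg adjustment over all of these genes and a threshold of 0.05. A fold change on this scale understates that of low genes. All 10 members were named throughout, up to 6 called genes per list, and the 3 genes closest to Plin1 and to Cidec. The members and lists were chosen with earlier results of these data known. Each result was refitted with 0.1 as pseudocount, without a filter, with a mean of at least 1 FPKM, on the TPM scale, with edgeR 4.0.16 and DESeq2 1.42.0 on recovered reads, with 1 fit per tissue, with each mouse left out, and with a block for the mouse in the tissue comparisons. Leaving out mice 182 and 183 together was added after the data were seen. Mouse numbers in the titles pair the tissues of 1 animal, and deviations of same-numbered libraries correlated at −0.066 to 0.237 over 11489 genes. Scripts were tested on simulated data. Python 3.11.15 with pandas 2.3.3 made the other tables. Promoter stretches are from RefSeq (GRCm38.p6) and were found again in GRCm39 by exact match.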

Additional observations from a re-analysis of the deposited data

Results flagged for a closer look

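In 6 of 79 pairs of member and group with 4 or 5 mice, 1 library stood away from the others by more than Dixon's 95% limit, of which chance gives about 1 in 20. Plin2 in the visWAT library labelled WT, NCD, mouse 182 was at 346 FPKM, and the gap to the next library was 0.922 of the group's range. Plin1 in the liver of HFD-fed WT mouse 155 was at 1.18 FPKM, Cidec in the liver of NCD-fed Mlkl Adi-KO mouse 199 at 27.1 FPKM, and Mgll in the liver of HFD-fed Mlkl Adi-KO mouse 153 at 94.3 FPKM, each the highest of its group. Abhd5 in visWAT of HFD-fed Mlkl Adi-KO mouse 157 was highest at 16.9 FPKM, and Lipe in visWAT of NCD-fed Mlkl Adi-KO mouse 179 was lowest at 248 FPKM.

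The effect of HFD on WT mice differed between visWAT and liver for 7 of 10 members (limma, interaction of tissue and diet, visWAT minus liver, log2 scale). Among all genes, 21.8% were called higher and 18.2% lower. The values were −3.04 for Plin4, −2.56 for Cidec, −1.94 for G0s2, −1.83 for Lipe, −1.01 for Plin1, −0.69 for Pnpla2 and 1.73 for Plin2. The calls of Pnpla2 and Plin1 were lost on the TPM scale, and Plin2 was not called by edgeR or DESeq2. The value for Plin1 rests on livers with 0 to 2 reads apart from mouse 155.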

How the results depend on the processing

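Of 1989 refits of a member's difference, 1811 kept direction and side of the threshold, 51 lost a call, 16 gained one and 111 changed sign without a call on either side. Called members went from 0 to 1 for the genotype in HFD visWAT with DESeq2, from 4 to 1 for the diet in WT visWAT on the TPM scale with mouse 183 kept, and from 5 to 3 for the diet in Mlkl Adi-KO visWAT with no filter. With single mice left out the last count was 3 to 4 (3 without mouse 151, 166, 179 or 197), and the count for the diet in Mlkl Adi-KO liver, 3 with all mice, was 1 to 5 (1 without mouse 166 or 197, 5 without mouse 199). The genotype counts stayed at 0. With the replicate block for the mouse, 9 members were called between tissues and 7 for tissue by diet, as without it. Of the mice, 7 of 18 mice correlated best with their own number. The call of Plin2 in WT visWAT was lost without a filter (adjusted p = 0.0598), by edgeR (1.13) and DESeq2 (1.14), and without mouse 155, 161, 162, 165, 180 or 183 (1.37 to 1.65). Pnpla2 in the tissue-by-diet comparison lost its call without a filter or without mouse 154, 162, 164 or 180 (−0.57 to −0.67), Plin1 with a pseudocount of 0.1 (−1.63), and Mgll gained one without mouse 183 (−0.80). Over all genes, DESeq2 called 146 between genotypes in HFD visWAT and 259 in HFD liver, where limma called 3 and 26, 8 and 19 on NCD (limma 0 and 1), and 20 and 58 for genotype by diet in visWAT and liver (limma 0 and 2). The causes were not tested. At these depths Plin1 in liver rests on 0 to 2 reads per library, apart from 103 in HFD-fed WT mouse 155. The lowest value of another member, Plin4 at 0.606 FPKM in the liver of NCD-fed Mlkl Adi-KO mouse 179, rests on 67 reads.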
